A study of Mus musculus with 4 samples.

Results

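The genes that write, maintain and erase DNA methylation were examined in ATAC-Seq data from sorted bone marrow hematopoietic stem cells of control and Cpt1a-KO mice. In ATAC-Seq a transposase cuts open chromatin, and stretches with many cuts are called as peaks. The 9 genes were chosen by name: the methyltransferases Dnmt1, Dnmt3a and Dnmt3b, their recruiter Uhrf1, the demethylating oxygenases Tet1, Tet2 and Tet3, and the isocitrate dehydrogenases Idh1 and Idh2. Peaks that overlapped a gene body or the 5 kb on either side were taken, and those that shared at least 1 bp in any of the 4 libraries were merged into regions. This gave 218 regions of the 337776 in the genome (autosomes and X). There were 2 control libraries (labelled WT and, per the study's methods, Cpt1a fl/fl) and 2 KO libraries (Cpt1a-KO, in which Vav1-Cre deletes the floxed Cpt1a gene, so that deletion runs through the whole blood system and not in stem cells alone). Per the study's methods, mice were adults of both sexes on a C57BL/6, CD45.2 background. The labels add normal chow and that sorted cells were frozen. The labels call the cells long-term HSCs and the study calls them HSPCs. Whether the controls carried Cre, and whether the 2 libraries of a genotype came from separate mice, is not given in the sources used here, so the spread between libraries may be technical.

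In DNA methylation a methyl group is placed on the cytosine of a CpG dinucleotide. DNMT3A and DNMT3B place new marks, and DNMT1, guided to newly copied DNA by UHRF1, restores marks after replication. TET enzymes oxidize the mark with oxygen and 2-oxoglutarate, a metabolite that IDH1 makes in the cytosol and IDH2 in mitochondria. DNMT3A and TET2 are known as the most often mutated genes of age-related clonal hematopoiesis, and both restrain HSC self-renewal in mice. CPT1A moves long-chain fatty acids into mitochondria for oxidation, whose product enters the citric acid cycle. The comparison asked whether the accessible sites of these genes differed between control and KO cells.

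RefSeq (GRCm38.p6, the same coordinates as mm10) gave 15 annotated start sites for the 9 genes, each with 250 bases before it and 50 after it. Of these 15 windows, 14 had their start site inside a region that held a peak in all 4 libraries, against 46.0% of 32619 windows in the genome, and 1 had no peak in any library. The exception was the most upstream start of Dnmt1. The windows below are printed on the gene's own strand, with CpG dinucleotides in capitals, because they show the range of CpG content behind open and closed starts. Dnmt1 start 1 (chr9:20959839-20960138, minus strand) was closed and held 2 CpGs. Dnmt1 start 3 (chr9:20952574-20952873, minus strand) was open and held 33. Tet1 start 1 (chr10:62887275-62887574, minus strand) was the weakest open first start of a gene and held 17. Tet2 start 1 (chr3:133544341-133544640, minus strand) held 57, more than 99.8% of all start windows.
Dnmt1 start 1: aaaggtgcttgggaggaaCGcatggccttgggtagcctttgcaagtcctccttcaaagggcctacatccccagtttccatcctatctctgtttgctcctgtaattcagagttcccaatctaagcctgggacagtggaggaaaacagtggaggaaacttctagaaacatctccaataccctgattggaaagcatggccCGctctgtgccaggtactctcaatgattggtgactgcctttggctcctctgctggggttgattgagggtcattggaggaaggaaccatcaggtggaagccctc
Dnmt1 start 3: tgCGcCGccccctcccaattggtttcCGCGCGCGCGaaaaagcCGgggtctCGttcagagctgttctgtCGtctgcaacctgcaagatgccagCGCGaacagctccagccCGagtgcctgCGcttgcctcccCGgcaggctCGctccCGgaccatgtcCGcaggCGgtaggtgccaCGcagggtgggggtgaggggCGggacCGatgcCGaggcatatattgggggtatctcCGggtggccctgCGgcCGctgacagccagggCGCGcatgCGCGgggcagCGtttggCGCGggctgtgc
Tet1 start 1: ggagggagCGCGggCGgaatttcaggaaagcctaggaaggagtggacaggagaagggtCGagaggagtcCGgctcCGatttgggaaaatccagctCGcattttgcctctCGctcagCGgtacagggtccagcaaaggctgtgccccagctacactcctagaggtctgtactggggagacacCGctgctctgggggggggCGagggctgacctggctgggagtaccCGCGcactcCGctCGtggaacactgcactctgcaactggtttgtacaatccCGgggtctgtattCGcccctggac
Tet2 start 1: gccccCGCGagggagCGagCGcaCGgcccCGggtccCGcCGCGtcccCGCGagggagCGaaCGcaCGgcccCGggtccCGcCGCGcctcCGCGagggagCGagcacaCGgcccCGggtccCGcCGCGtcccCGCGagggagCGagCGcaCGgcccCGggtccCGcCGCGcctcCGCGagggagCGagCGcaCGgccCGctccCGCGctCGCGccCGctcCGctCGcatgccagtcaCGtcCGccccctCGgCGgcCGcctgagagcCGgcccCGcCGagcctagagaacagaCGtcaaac

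Open start windows of the 9 genes held 12 to 57 CpGs, with a median of 23, against a median of 21 in the 15015 open windows of the genome and 3 in the 16295 windows without a peak. Dnmt1 is known to be transcribed from separate promoters in oocytes and in somatic cells. In these blood cells the open Dnmt1 starts were the 2 downstream ones, at 20952979 and 20952623, which shared 1 region. Short motifs known from CpG-rich promoters were searched as letters on both strands, and matches of different motifs shared no bases in these windows. The GC box GGGCGG was in 13 of the 15 windows, against 35.9% of all windows and 64.7% of open ones. CCAAT was in 7 of 15, against 37.6% of all windows. The NRF1 letters GCATGCGC were in Dnmt1 starts 2 and 3 only, against 2.72% of all windows, and the E2F letters TTTGGCG were in Dnmt1 start 3 only, against 1.58%. The ETS letters CCGGAAG were in 0 of 15 windows, against 8.92% of all and 16.5% of open windows. Letters in a window describe sequence and do not show binding.

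The level given for a region is the authors' fold, the signal at its strongest summit over the library's background, ranked within its library. A percentile of 90 means that the fold was at least as high as in 90% of the regions of that library, and a wide region with many summits ranks by the highest of them. Read counts are not part of the lists, which leaves the depth of each library unknown and gives no counting error. The libraries held 152879 to 172740 regions genome-wide; the share of summits reaching a −log10 q of 5 was 42.5% in control 1, 46.8% in control 2, 40.5% in KO 1 and 35.1% in KO 2. At HSC marker genes the labels could be checked. Of the 8 start windows in the table, 7 were in regions of all 4 libraries, and Hoxa9 had no peak. The 7 were Kit, Procr, Slamf1, Mecom, Hlf, Meis1 and Gata2, at percentiles of 4.81 to 96.3. Mecom lay at 69.0 and 47.8 in the controls against 42.4 and 4.81 in KO, both KO values below both controls. Slamf1 lay at 63.5 and 64.9 against 81.0 and 70.7, both above. The other open HSC starts overlapped between the genotypes. Markers of other cells were also partly open. The median percentile over the libraries was 76.3 at the open HSC starts and 75.1 at the open neutrophil starts, so strength did not separate these 2 lists. The T cell starts of Cd3e, Cd8a and Bcl11b and the erythroid starts of Klf1 and Epor had no peak, nor did the monocyte start of Ccr2, and Cd3g had one in 3 libraries. Of markers from outside blood, Alb had no peak and Neurod1, a neural factor with a CpG-rich start, lay at 51.5 to 74.8. The B cell starts of Cd79a and Pax5 lay at percentiles of 27.3 to 47.0 in control and 36.1 to 67.1 in KO cells, while Ebf1 had no peak. The neutrophil starts of S100a8, Mmp8 and Camp lay at 66.4 to 87.2 in control and 56.1 to 75.5 in KO cells, and Ly6g had no peak. Gene by gene, the genotypes overlapped at Cd79a and Mmp8. Both KO values were above both controls at Pax5 and below both at S100a8 and Camp. Of all shared regions genome-wide, 19.0% had the first order and 17.8% the second. The part of other cell types in the values below was not tested. The start of Cpt1a itself lay at 83.7, 79.9, 84.1 and 88.4 in control 1, control 2, KO 1 and KO 2, and it checks nothing, since a peak can remain at the start of a gene that carries a deletion.

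**Figure D1:**
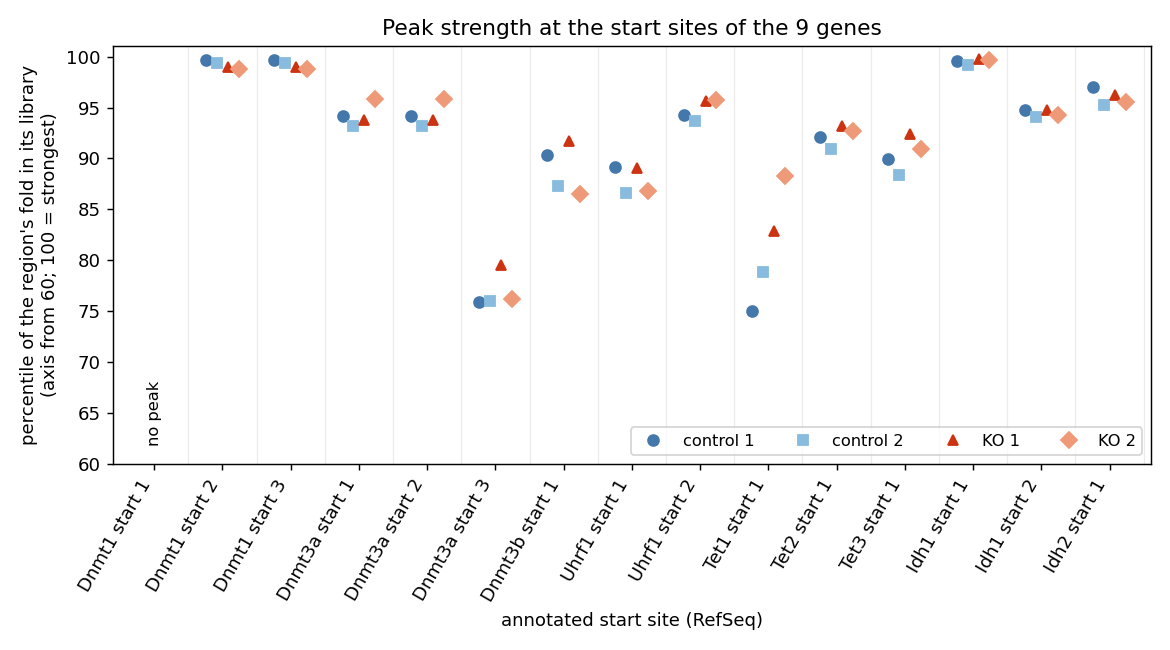
Percentile of the authors' fold (y axis, drawn from 60, with 100 the strongest) for the region at each of 15 annotated start sites (x axis), with 1 point for each of the 2 control and 2 KO libraries. Dnmt1 start 1 had no peak, starts that share a region carry the same points, and the Tet1 start shows the widest gap between the genotypes.

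Dnmt1, the maintenance methyltransferase, had one of the strongest starts. Its start region (chr9:20952171-20953271, 1101 bp, inside the gene) lay at percentiles of 99.7 and 99.3 in the controls against 99.0 and 98.8 in KO. Both KO values were below both controls, with a mean difference (KO minus control) of -0.609 percentile points. Folds at the summit were 23.8 and 22.0 in the controls against 21.1 and 19.3 in KO. The 3 other Dnmt1 regions of all 4 libraries lay at mean percentiles of 78.9 to 81.7.

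Dnmt3a, a methyltransferase that places new marks, had the most regions of the 9 genes, 47, of which 14 were in all 4 libraries. The region at its first start sites (chr12:3806087-3807460) lay at 94.2 and 93.2 in the controls against 93.7 and 95.8 in KO, so the genotypes overlapped. An internal start at 3891744, inside the widest member region (2255 bp), lay lower, at 75.9 and 76.0 against 79.6 and 76.1. Of the other shared regions of Dnmt3a, the one 54.5 kb into the gene (chr12:3855720-3856476) lay at 90.9 and 85.8 in the controls against 93.4 and 93.0 in KO. The one 33.1 kb into the gene lay at 86.3 and 85.8 in the controls against 84.4 and 83.3 in KO, the opposite order.

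Dnmt3b, the other methyltransferase for new marks, had 18 regions, and 16 of them were in 1 library alone. Its start region (chr2:153648942-153650399) lay at 90.4 and 87.2 in the controls against 91.7 and 86.5 in KO, so the KO values spanned the controls. The second shared region, 19.5 kb into the gene, lay at 83.2 and 84.5 against 88.9 and 82.1, again with overlap.

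Uhrf1, which brings DNMT1 to hemimethylated DNA, is a short gene with 8 regions, 4 of them in all 4 libraries. Its first start (chr17:56302950-56303706) lay at 89.2 and 86.6 in the controls against 89.1 and 86.8 in KO. Its second start (chr17:56303837-56304640) lay at 94.3 and 93.7 in the controls against 95.7 and 95.7 in KO, with no overlap. A weak region 6.46 kb into the gene lay at 28.3 and 26.9 against 51.8 and 49.6. The strongest region in the Uhrf1 window (chr17:56325339-56326379), at 96.6 and 97.3 against 97.8 and 99.3, lay beyond the gene's end and held an end of the next gene, Kdm4b, a histone demethylase. At 3 of the 4 shared regions of Uhrf1, the one at Kdm4b among them, both KO values were above both controls. Genome-wide, 19.0% of shared regions had that order.

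Tet1, the first of the demethylating oxygenases, had the lowest of the strongest starts of the 9 genes and the widest gap between genotypes there. The region (chr10:62885888-62887490, 1603 bp) lay at 75.0 and 78.9 in the controls against 82.9 and 88.3 in KO, a difference of 8.65 percentile points between the means that did not pass limma (adjusted p = 0.698). Folds were 5.78 and 7.28 in the controls against 7.54 and 9.01 in KO. The strongest Tet1 region was not at this start but 22.0 kb into the gene (chr10:62865124-62865914), where an end of the overlapping gene Gm51805 also lies. It held 94.4 and 91.2 in the controls against 90.7 and 94.7 in KO, with overlap.

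Tet2 had 18 regions and 3 in all 4 libraries. Its start (chr3:133543902-133545335) lay at 92.1 and 91.0 in the controls against 93.2 and 92.7 in KO, and a region 19.1 kb into the gene at 64.4 and 64.2 against 70.5 and 78.3. Both had both KO values above both controls, an order held by 19.0% of shared regions genome-wide. The third shared region, past the gene's end, lay at 66.4 and 64.2 against 56.1 and 68.4 and overlapped.

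Tet3 had 44 regions, 11 of them in all 4 libraries. The region at its annotated start (chr6:83440839-83442177), which also holds an end of the gene B230319C09Rik, lay at 89.9 and 88.4 in the controls against 92.4 and 90.9 in KO. The region at the gene's outer end (chr6:83455856-83457158) lay at 88.8 and 83.8 against 86.7 and 88.6, and the strongest one, 75.2 kb into the gene, at 92.8 and 91.8 against 93.2 and 91.4. These 2 overlapped between the genotypes. Among the weak Tet3 regions the order went the other way at 3. The widest gap was 58.0 and 64.9 in the controls against 12.6 and 52.2 in the KO libraries at 8.21 kb. The narrowest was 58.2 and 56.7 against 53.3 and 51.2 at 40.6 kb. Genome-wide, 17.8% of shared regions had both KO values below both controls.

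Idh1 and Idh2, which make 2-oxoglutarate, had strong starts. The Idh1 start region (chr1:65186188-65187191) lay at 99.5 and 99.2 in the controls against 99.8 and 99.7 in KO, but Pikfyve, a phosphoinositide kinase gene that runs the other way, starts in the same region. The second Idh1 start, 7.73 kb into the gene, lay at 94.8 and 94.0 against 94.8 and 94.3. The Idh2 start region (chr7:80114443-80115878) lay at 97.0 and 95.2 in the controls against 96.2 and 95.6 in KO, within the range of the controls.

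Ordered by mean percentile at the strongest start over the 4 libraries, the genes ran Idh1 (99.6), Dnmt1 (99.2), Idh2 (96.0), Uhrf1 (94.9), Dnmt3a (94.2), Tet2 (92.2), Tet3 (90.4), Dnmt3b (89.0) and Tet1 (81.3). Neighbours in this order overlapped in their library values, except Dnmt1 above Idh2 and Dnmt3a (93.2 to 95.8) just above Tet2 (91.0 to 93.2). The median over all open start windows was 93.3 to 94.3 by library. Among 32 pathway genes with an open start in every library, the start most like that of Dnmt1 and Idh1, by the smallest maximum gap over the libraries, was Mthfd1 (gaps of 0.450 and 0.496 percentile points). It was Mbd3 for Dnmt3a and Uhrf1 (1.15 and 0.801), Kdm2b for Tet2 and Tet3 (0.978 and 3.03), Mthfd2 for Idh2 (0.966), Smug1 for Dnmt3b (3.33) and Gadd45g for Tet1 (8.84). The large gap for Tet1 shows that no listed gene matched its start closely.

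**Figure D2:**
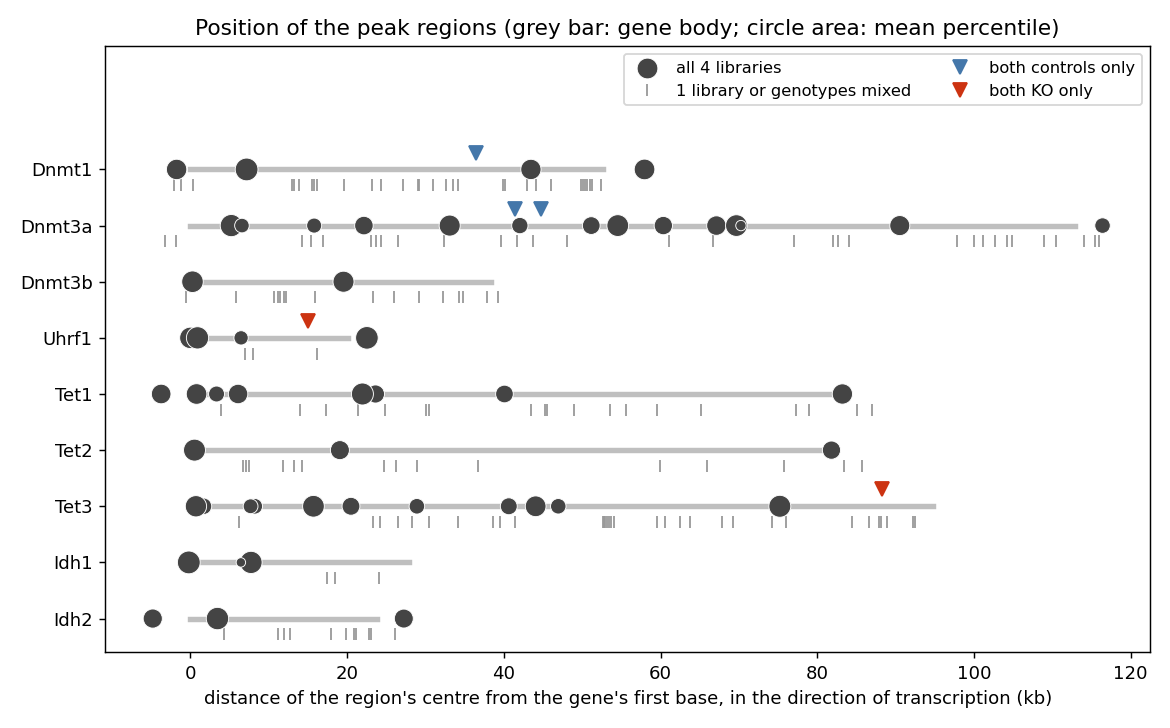
Distance of each region's centre from the gene's first base in the direction of transcription (x axis, kb), for the 9 genes (rows) over 2 control and 2 KO libraries. Circles are regions of all 4 libraries with area by mean percentile, ticks are regions of 1 library or of mixed genotypes, and triangles are the 5 regions of 1 genotype, all away from the start sites.

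Most regions of these genes were not shared. Of the 218 regions, 52 (23.9%) had a peak in all 4 libraries, against 23.8% genome-wide, and 143 (65.6%) were in 1 library alone, against 59.3%. The single-library regions were short, with a median of 101 bp against 707.5 bp for the shared ones, and ranked low, with medians of 20.4 to 28.4 by library. Each library held a like number of the 218, with 103 and 101 in the controls against 101 and 98 in KO. The 12 shared regions with a start site of their own gene had a median width of 1397.5 bp and a median percentile of 93.2, and the 40 others 486.5 bp and 65.2. Of the 52 shared regions 38 lay inside gene bodies, and of the 143 single ones 132 did. Whether they fall in exons or introns was not analysed here.

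Regions held by both libraries of 1 genotype and by neither of the other numbered 5. Only in KO were 2 of 218 (0.917%), against 1.41% of all regions genome-wide, and only in control were 3 (1.38%), against 2.46%. Neither share was above that of the genome. The control regions were 1 in Dnmt1 (chr9:20923364-20923595, 36.4 kb into the gene, folds of 3.24 and 3.13) and 2 in Dnmt3a. The first Dnmt3a region (chr12:3842911-3843041, 41.4 kb into the gene) had folds of 2.27 and 5.27, percentiles of 5.49 and 68.0, so 1 of the libraries barely held it. The second (chr12:3846181-3846474, 44.8 kb) had folds of 3.21 and 3.10. The KO regions were 1 in Uhrf1 (chr17:56318223-56318508, 15.0 kb, folds of 2.90 and 2.71) and 1 in Tet3 (chr6:83368810-83368948, 88.3 kb, folds of 2.94 and 3.03). All 5 were 131 to 294 bp wide and inside their genes, each had 1 summit per library, and 1 of their 10 peaks had a −log10 q of at least 5. Among peaks of −log10 q of at least 5, KO alone held 0 regions and control alone 6, while the 100000 strongest summits of each library (by −log10 p) gave 1 and 0, so the balance between the genotypes turned with the setting. The genome-wide balance turned too, with 517 regions only in KO and 4497 only in control of 80561 at the first setting and 1842 and 1632 of 73840 at the second. When presence needed coverage of a share of 0.5 of the region, KO alone held 2 and control alone 7. Genome-wide the shares at that setting were 1.33% and 3.87%. Leaving out a library leaves its genotype with 1 library to decide, and the counts rose by that construction. Without control 1 or 2, 41 and 39 were only in control, against 15.8% and 20.6% of regions genome-wide. Without KO 1 or 2, 40 and 35 were only in KO, against 21.5% and 21.2% genome-wide. Without KO 1 or KO 2, 5 were only in control (6.11% and 4.93% genome-wide), and without control 2, 5 were only in KO (2.80%).

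**Figure D3:**
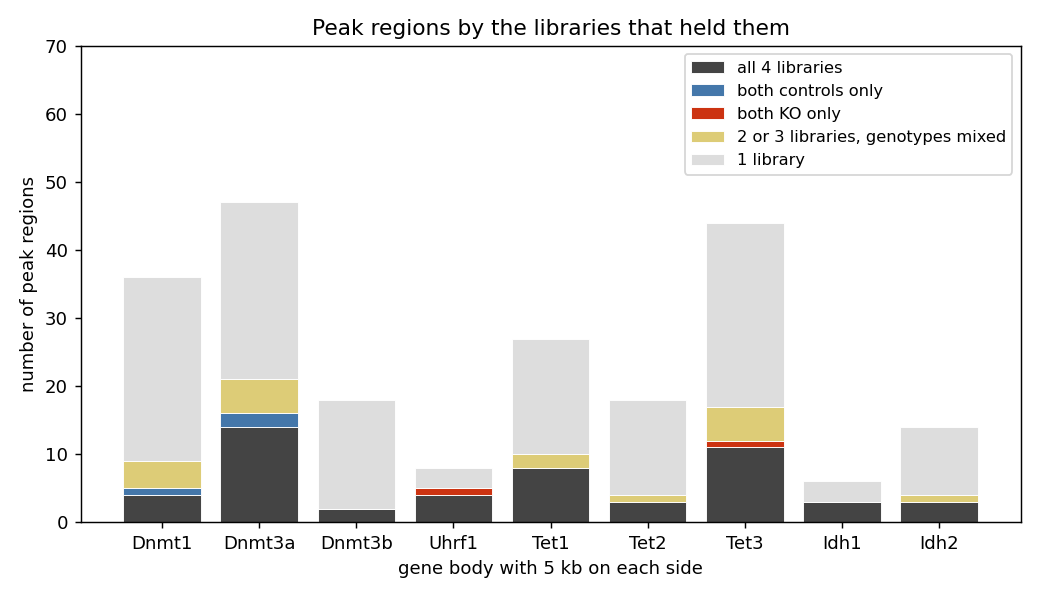
Number of peak regions (y axis) in each gene body with 5 kb on each side (x axis), stacked by which of the 2 control and 2 KO libraries held them. Regions of 1 library outnumber the shared ones except in Uhrf1 and Idh1, and those of 1 genotype number 3 for control and 2 for KO.

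The ranks of the regions in all 4 libraries were compared between the genotypes with limma, fitted over all 80271 such regions on normal scores (the fold's rank within its library turned into a standard normal value). An exact permutation test of 2 against 2 libraries has a smallest p of 2 in 6, far above 0.05. With limma, 0 regions genome-wide passed an adjusted p of 0.05 as higher in KO (0%) and 0 as lower (0%), the lowest adjusted p being 0.408, and none of the 52 member regions passed. At an unadjusted p under 0.05, 2770 regions were higher in KO (3.45%) and 3176 lower (3.96%), and of the 52 member regions 1 was higher and 0 lower. A low count of calls does not show that the regions were alike.

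The member region with the lowest p was a weak one in Idh1 (chr1:65179958-65180127, 170 bp), at percentiles of 1.63 and 0.746 in the controls against 26.5 and 39.7 in KO. Its score was higher in KO by 1.42 ± 0.54 (SE), with a limma adjusted p of 0.628, and it sits at the bottom of the control lists. Next came the region of Uhrf1 at Kdm4b (0.40 ± 0.20, limma adjusted p = 0.689) and a region past the end of Idh2 (0.67 ± 0.34, limma adjusted p = 0.694). The latter lies within the span of another gene, Zfp710. After them came the Dnmt3a region 54.5 kb into the gene (0.35 ± 0.18, limma adjusted p = 0.698) and the Tet1 start (0.45 ± 0.23, limma adjusted p = 0.698). In the other direction the lowest p was at the Dnmt1 start, lower in KO by 0.34 ± 0.20 on the score scale (adjusted p = 0.735). At the start regions of Idh1 (0.34 ± 0.22), Uhrf1 (0.18 ± 0.16), Tet3 (0.17 ± 0.17), Dnmt3a (0.11 ± 0.17), Tet2 (0.10 ± 0.17) and Dnmt3b (0.01 ± 0.19) the KO score was higher and at Idh2 lower (-0.06 ± 0.17), with limma adjusted p of 0.765 to 0.994.

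As plain counts, both KO percentiles were above both controls at 14 of the 52 member regions (26.9%), against 19.0% of the shared regions genome-wide, and below both at 8 (15.4%), against 17.8%. By gene the first kind was 3 in Uhrf1, 2 each in Dnmt3a, Tet1, Tet2 and Idh1 and 1 each in Dnmt1, Tet3 and Idh2, and the second was 3 in Tet3, 2 each in Dnmt1 and Dnmt3a and 1 in Idh2. Of the 12 start regions, 6 were of the first kind and 1, Dnmt1, of the second, against 22.8% and 13.4% of the 11761 shared regions with a start site genome-wide. The mean KO percentile was higher at 28 of the 52 (53.8%), against 50.6% genome-wide, with a median difference of 0.189 percentile points against 0.0551. On the normal scores that limma tested, KO was higher at 25 of the 52, against 50.4% genome-wide, so this lean turned with the scale. The median score difference was -0.00304, against 0.00302 genome-wide. In percentile points, which end at 100, differences were wide at weak regions and narrow at strong ones. This depends on the scale. A score difference of 0.34 was 0.399 points at the Idh1 start but 6.25 points at the Dnmt3a region 42.0 kb into the gene. The 21 regions with a mean percentile of at least 80 differed by -2.21 to 8.65 percentile points, and the 31 others by -29.1 to 31.9.

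**Figure D4:**
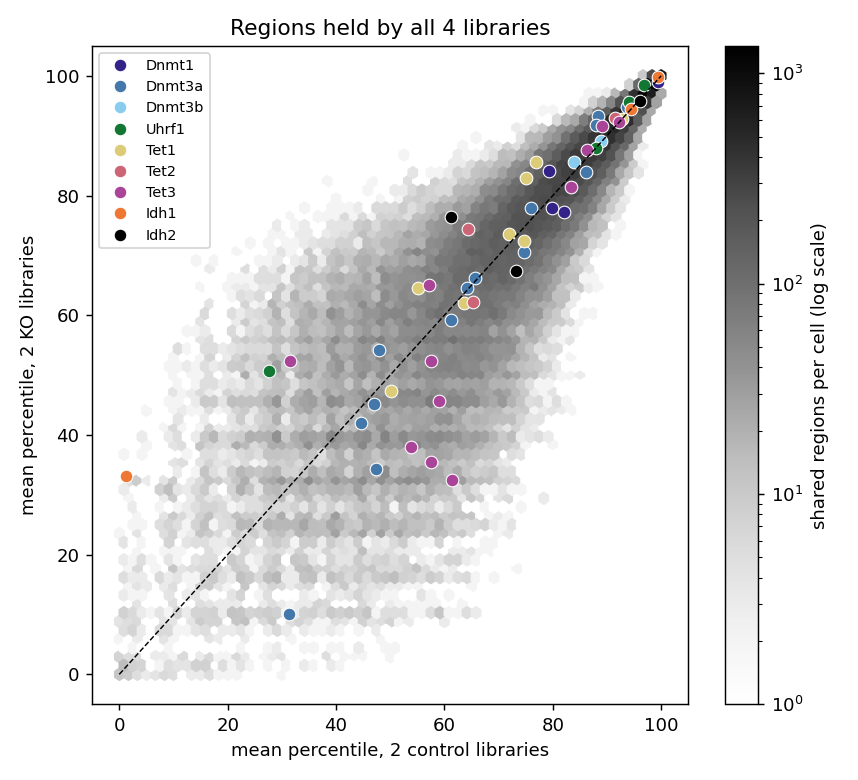
Mean percentile in the 2 control libraries (x axis) against that in the 2 KO libraries (y axis) for the 80271 regions held by all 4 libraries (grey, darker cells hold more regions on a log scale), with the 52 member regions as coloured points. Points hug the dashed line of equality above a percentile of about 80 and scatter below it, where Idh1's weak region at 1.63 and 0.746 in the controls stands apart.

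By the strongest region in each gene's window, the KO percentiles were both above the controls in 3 of the 9 genes, Uhrf1, Tet2 and Idh1, by 1.61, 1.38 and 0.399 percentile points in the mean. The share was 21.6% of the 30802 genes whose window held a region in each of the 4 libraries, not always the same one. They were both below in 1, Dnmt1 (-0.609 points), against 15.0% of genes. The strongest regions of Uhrf1 and Idh1 are those shared with Kdm4b and Pikfyve. The sizes depended on the measure. Ranked by −log10 p in place of the fold, the differences at Uhrf1, Tet2 and Idh1 were 0.357, 0.710 and 1.20 points. In Dnmt3a, Dnmt3b, Tet1, Tet3 and Idh2 the genotypes overlapped. With 1 library left out the counts moved up by construction, to 5 above without control 1, KO 1 or KO 2, and to 2 or 3 below without control 2, KO 2 or KO 1.

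The list of 42 other genes of the pathway covers methyl-CpG readers, base excision and hydroxymethyl factors, CXXC proteins, citric acid cycle enzymes and one-carbon enzymes that supply the methyl donor. All 42 had a region in all 4 libraries. Of their 469 regions, 141 (30.1%) were in all 4 libraries, 9 (1.92%) only in KO and 6 (1.28%) only in control, against 1.41% and 2.46% genome-wide, but with peaks of −log10 q of at least 5 alone KO held 0 and control 6, and with the 100000 strongest summits 1 and 2, settings at which all regions split 517 to 4497 and 1842 to 1632. At a coverage of 0.5, 18 were only in control, a setting at which 3.87% of all regions were. Leaving out a library moved these counts by the construction described above. Without KO 1 or KO 2, 83 and 76 were only in KO (21.5% and 21.2% genome-wide). Without control 1 or control 2, 61 and 78 were only in control (15.8% and 20.6% genome-wide). Without control 2, 14 were only in KO (2.80% genome-wide). Without KO 1 or KO 2, 19 and 13 were only in control (6.11% and 4.93% genome-wide). The 9 regions only in KO lay at Dnmt3l, a partner of the new-mark methyltransferases (2), Kdm2b (2), Mbd2, Zbtb4, Zbtb38, Cxxc5 and Ogdh. The 6 only in control lay at Usp7 (2), Cxxc1, Sdhb, Mat2a and Mthfd1. By limma 0 of the 141 shared regions passed, with a lowest adjusted p of 0.565. An unadjusted limma p under 0.05 was reached by 13 (9.22%), both directions together. Over all 80271 shared regions, 3.45% reached it as higher in KO and 3.96% as lower. By the strongest region, both KO percentiles were above both controls in 6 of the 42 genes (14.3%), against 21.6% of all genes, among them Hells, a remodeler needed for DNA methylation (91.3 and 87.9 against 94.8 and 95.3), and Tdg, the glycosylase that removes oxidized cytosine (98.4 and 98.4 against 99.4 and 99.6). They were below both controls at Mat2a, the enzyme that makes the methyl donor (96.1 and 95.5 against 93.4 and 94.6).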

How the data were processed

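Per the labels, the authors mapped reads with Bowtie2 to mm10 and called peaks with MACS2 (versions are not given in the sources used here), on each library separately. The deposited lists hold, per summit, a fold ratio over background, −log10 p, −log10 q, a score column and the summit position, and no read counts. The score was not used.

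Intervals were merged with Python 3.11.15 and pandas 2.3.3 (the same regions came from bedtools 2.31.1). Regions in all 4 libraries were tested with limma 3.58.1 in R 4.3.3, trend on, 2 control against 2 KO libraries, with Benjamini-Hochberg adjustment over all 80271, and the script was checked on simulated data. The DiffBind and edgeR test of the study needs reads and was not run. The members and the lists of pathway genes and markers were chosen with earlier results of these data known. Named are all 9 genes with their start region, strongest region, regions of 1 genotype and lowest p in each direction. The closing section gives the alternatives: stricter peaks, other overlap and flanks, other ranks and each library left out. Replicate numbers did not pair the libraries (r = 0.005). 1 gene of the pathway list is left out of the text.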

Additional observations from a re-analysis of the deposited data

How the results depend on the processing

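None of the 52 member regions, nor of the 141 shared pathway regions, passed limma under any alternative run, while calls among all regions were 16 higher and 31 lower in KO with a replicate block, 1 higher when ranked by −log10 p and 2 higher without KO 2. The replicate numbers do not pair the libraries (correlation of deviations 0.005), and with the replicate block 0 member regions were called. Without each library in turn, all regions called higher in KO ranged from 0 to 2. Member regions in every library were 31 at −log10 q of at least 5 and 30 with the 100000 strongest summits. Member regions only in KO were 0 and 1 at these settings and 3 to 40 with a library left out, and those only in control were 6, 0, 7 at a coverage of 0.5, and 5 to 41. For the pathway list, regions in every library were 92 with the strongest summits and 92 at a coverage of 0.5. Those only in KO were 0, 1 and 13 to 83 with a library left out, and those only in control were 2 with the strongest summits, 18 at a coverage of 0.5 and 13 to 78 with a library left out. A genotype left with 1 library needs only that one, which raises its count by construction. By the strongest region, genes with KO above numbered 3 to 5 and genes with KO below 1 to 3 with a library left out. The fitted sign at the start of Dnmt3a turned without KO 2 (-0.0189, and 0.229 without KO 1). At Dnmt3b it turned when ranked by −log10 p (-0.0278) and with a library left out (-0.155 to 0.172), and at Idh2 with a library left out (-0.153 to 0.0344). The cause of the other changes was not tested. With no counts, depth sets no printed limit.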

Other observations

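Outside the 9 genes, the pathway region with the lowest p, chosen after its values were seen, was 1 of the 3 shared regions of Sdha, the flavoprotein of succinate dehydrogenase, at percentiles of 99.1 and 98.3 in the controls against 94.8 and 93.2 in KO (score -0.81 ± 0.17 SE, limma unadjusted p = 0.000268, adjusted p = 0.565). The annotated Sdha start lay in another region, at 99.91 and 99.90 in the controls against 99.98 and 98.56 in KO, with overlap. A shared region of Cxxc1, a CpG-binding factor, lay at 67.2 and 66.6 against 79.0 and 89.0 (0.84 ± 0.28, limma adjusted p = 0.595). Of the shared regions of Hells, 1 was higher in both KO libraries and another, at 78.6 and 66.6 against 56.1 and 28.8, was lower (-1.03 ± 0.41, limma adjusted p = 0.639). None passed the adjustment.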
